A study of Mus musculus with 9 samples.

Results

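The genes described here are established targets that the tumour suppressor p53 switches on. They were chosen by symbol from a list of 34 mouse genes, of which 33 were found among the 24341 genes of the deposited RNA-Seq tables. The remaining symbol, Tigar, is not used in the tables, and the row that carries its RefSeq transcript under another name is described apart and left out of all counts. RNA-Seq measured 9 samples of mouse embryonic fibroblasts (MEFs), which are cells grown out of embryos, of strain C57BL/6: 3 WT, 3 Atm-/- and 3 Sirt6-/- samples. All were grown in DMEM with 10% FBS, and the labels name no age, passage or DNA-damaging agent. Atm is the kinase that senses DNA double-strand breaks and phosphorylates p53, and Sirt6 is a chromatin deacylase. The labels also name P53-/- and Atm-/-P53-/- mice as sources of MEFs without saying which samples came from them. The study's methods describe immortalized Atm-/-; p53-/- MEFs and Sirt6-/- MEFs that were given by separate laboratories, next to primary MEFs of its own, and do not state which cells were sequenced. Loss of Atm or Sirt6, loss of p53, immortalization and the origin of the cells therefore cannot be told apart in these comparisons. Nothing in the labels says that the 3 samples of a genotype came from separate embryos or cultures, so the p-values measure only the spread between these samples.

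The samples held between 32187040 and 33837949 reads on genes. Sirt6 was counted with 487, 402 and 472 reads in WT and with 4, 5 and 7 reads in the samples labelled Sirt6-/-. Atm was counted with 1536, 1617 and 1627 reads in WT and with more, 3768, 3564 and 3443 reads, in the samples labelled Atm-/-. Counts per gene do not show whether the disrupted part of Atm was read, so they do not check that label, and Atm-/- below means the samples so labelled. Levels are given as normalized CPM, which are read counts scaled by library size and composition. All 12 fibroblast markers were above 1 CPM in WT and in Atm-/-, and 11 of 12 in Sirt6-/-, where Thy1 was the exception. Their summed level was 27700 to 30600 in WT, 20200 to 20600 in Sirt6-/- and 9420 to 9620 CPM in Atm-/-, carried mostly by Col1a1, Col1a2, Fn1 and Vim. Single fibroblast markers went both ways in the tests described below. Of the 12, 8 fell and 4 rose in Atm-/-, and 6 fell and 6 rose in Sirt6-/-. Of all genes, 33.6% fell and 34.7% rose in Atm-/-, and 37.4% fell and 39.2% rose in Sirt6-/-. Markers of other cell types also moved with genotype. The sum of 3 neural markers was 5.31 to 6.56 in WT, 176 to 190 in Atm-/- and 218 to 236 CPM in Sirt6-/-, carried by Nes, while Sox10 stayed at 17 reads or fewer in every sample. The sum of 5 epithelial markers was 20.3 to 23.5 in WT, 18.4 to 21.3 in Sirt6-/- and 86.3 to 93.4 CPM in Atm-/-, carried by Krt19 and Krt18. The sum of 3 haematopoietic markers was 10.7 to 11.8 in WT, 3.4 to 3.61 in Atm-/- and 3.53 to 4.2 CPM in Sirt6-/-, and that of 3 endothelial markers 2.86 to 4.89, 9.81 to 12.5 and 0.552 to 0.84. Csf1r was at a mean of 7.71 CPM in WT, 0.716 in Atm-/- and 2.12 in Sirt6-/-, and Ptprc at 6 reads or fewer in every sample. Kdr carried the endothelial sum in WT and Atm-/-, with Pecam1 and Cdh5 at 13 reads or fewer in every sample. Skeletal muscle and pluripotency markers summed to at most 1.52 and 2.69 CPM, with Myog and Pou5f1 at 0 reads in every sample. The part of these marker levels in the results was not tested. In bulk samples such as these, fewer cells that express a gene and less RNA of it per cell cannot be told apart.

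p53 is a transcription factor that is kept scarce by the ubiquitin ligase Mdm2 and is stabilised when Atm and related kinases report DNA damage. It then binds DNA as a tetramer at a pair of similar 10-base half-sites and raises genes that stop the cell cycle, trigger apoptosis, repair DNA and adjust metabolism. Mdm2 is itself a target, which closes a negative feedback loop, and p53 also lowers many mitotic genes through the p21 protein encoded by Cdkn1a. In cultured MEFs this programme is known for ending proliferation after a limited number of passages.

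RefSeq promoter windows on GRCm38.p6, running from 250 bases before to 50 bases after an annotated start, were given for 25 of the 34 listed genes. A half-site was searched on both strands by the p53 consensus, which is a run of purines, a C, A or T at both central positions, a G and a run of pyrimidines, and which reads as itself on the opposite strand. It was present in the windows of 11 of these 25 genes (44.0%) and of 9.55% of all 27025 genes with a window. A pair of half-sites separated by at most 13 bases was present in the window of Cdkn1a alone among the listed genes (4.0%) and in 0.074% of all genes. The stretches below are shown because they belong to the cell cycle inhibitor and the feedback gene of the pathway and to target genes that differ in direction in the results. They are written 5′ to 3′ on the strand of the gene, and capitals mark the half-sites.
Cdkn1a, chr17:29090891-29090952, plus strand: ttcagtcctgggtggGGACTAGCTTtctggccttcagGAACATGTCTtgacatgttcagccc
Ccng1, chr11:40755447-40755486, minus strand: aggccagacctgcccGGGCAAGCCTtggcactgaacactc
Mdm2, chr10:117710920-117710959, minus strand: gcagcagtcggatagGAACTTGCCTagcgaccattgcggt
Bax, chr7:45467075-45467114, minus strand: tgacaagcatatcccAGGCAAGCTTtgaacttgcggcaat
Gadd45a, chr6:67037423-67037462, minus strand: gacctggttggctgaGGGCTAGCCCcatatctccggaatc
Sesn1, chr10:41887251-41887290, plus strand: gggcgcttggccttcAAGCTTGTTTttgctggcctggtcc
Polk, chr13:96519394-96519433, minus strand: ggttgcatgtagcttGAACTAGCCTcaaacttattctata
Ddit4l, chr3:137623567-137623606, plus strand: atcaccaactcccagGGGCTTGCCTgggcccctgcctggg
The half-sites of Cdkn1a begin 73 and 51 bases before an annotated start and are separated by 12 bases. Only full matches to the consensus were marked. The run of bases directly after the downstream half-site of Cdkn1a misses the consensus in its first letter alone, so it was neither marked nor paired. The half-site begins 185 bases before an annotated start in Ccng1, 186 in Mdm2, 201 in Bax, 40 in Gadd45a, 173 in Sesn1, 231 in Polk and 90 in Ddit4l. Cdkn1a, Sesn1 and Polk have 2 windows each, and the distances are from the start of the window that holds the half-site. Aen, Ei24 and Rps27l also held a half-site. The windows that hold the half-sites of Sesn1, Polk and Rps27l belong to annotated starts within the gene and not to its outer end. A match is a description of letters and not a measured binding site, and sites outside the windows were not searched.

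The first comparison asked how these genes differed between Atm-/- and WT MEFs. More p53-induced genes were lower than higher in Atm-/-. The receptor gene Eda2r fell to 1.57 to 2.71 from 61.6 to 90.2 CPM, and Ccng1, Btg2, Zmat3 and Cdkn1a fell 5.99-, 4.39-, 3.56- and 2.24-fold. Ptp4a3 and Perp rose 3.22- and 2.33-fold, and Bax, the classical apoptotic target, rose 1.14-fold. Of 31 members tested, 16 fell (51.6%), 7 rose (22.6%) and 8 did not pass an adjusted p of 0.05 in edgeR's quasi-likelihood test over all genes. Over all 13283 genes tested, 33.6% fell and 34.7% rose. At a change of at least 2-fold, 9 members fell (29.0%) and 2 rose (6.45%), beside 9.85% and 12.6% of all genes. The median log2 fold change was -0.37 over the members and 0.02 over all genes tested. Scaled by library totals alone, without the composition factor, it was -0.21 over the members and 0.18 over all genes. Gdf15 and Ddit4l had too few reads to be tested.

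Between Sirt6-/- and WT MEFs the members moved both ways, and often further. Eda2r fell 20.4-fold, Pmaip1 9.06-fold, Cdkn1a 4.91-fold and Ccng1 4.75-fold, while Perp rose 25.8-fold, Fas 7.02-fold and Sesn1 4.68-fold. Ddit4l also rose, by a fitted 36.8-fold that rests on 0 to 4 reads per WT sample, and its log2 fold change was 4.62 to 6.11 when each sample was left out in turn. Of 32 members tested, 18 fell (56.2%), 11 rose (34.4%) and 3 did not pass the test. Over all 13206 genes tested, 37.4% fell and 39.2% rose, so the share of rising members was near that of all genes. At least 2-fold, 10 members fell (31.2%) and 5 rose (15.6%), beside 11.8% and 17.5% of all genes. The median log2 fold change was -0.24 over the members and 0.02 over all genes. With library totals the medians were -0.15 and 0.11. This comparison and the preceding one share the WT samples, so the values are given side by side and their likeness is no separate result.

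The direct comparison of Atm-/- with Sirt6-/- MEFs tested where the knockout cells differed from each other. Perp, Fas, Ddit4l and Sesn1 were lower in Atm-/- than in Sirt6-/-, by 11.0-, 8.41-, 4.1- and 3.04-fold, and Pmaip1, Aen and Cdkn1a were higher. Of 32 members tested, 14 were lower (43.8%), 11 higher (34.4%) and 7 did not pass the test, beside 37.8% lower and 38% higher of 13460 genes. At least 2-fold, 7 members were lower (21.9%) and 3 higher (9.38%), beside 14.2% and 11.3% of all genes. Without the 2-fold threshold, the shares of members called in either direction were close to those of all genes. With it, the share of lower members was above that of all genes. The median log2 fold change was -0.18 over the members and 0.00 over all genes.

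**Figure D1:**
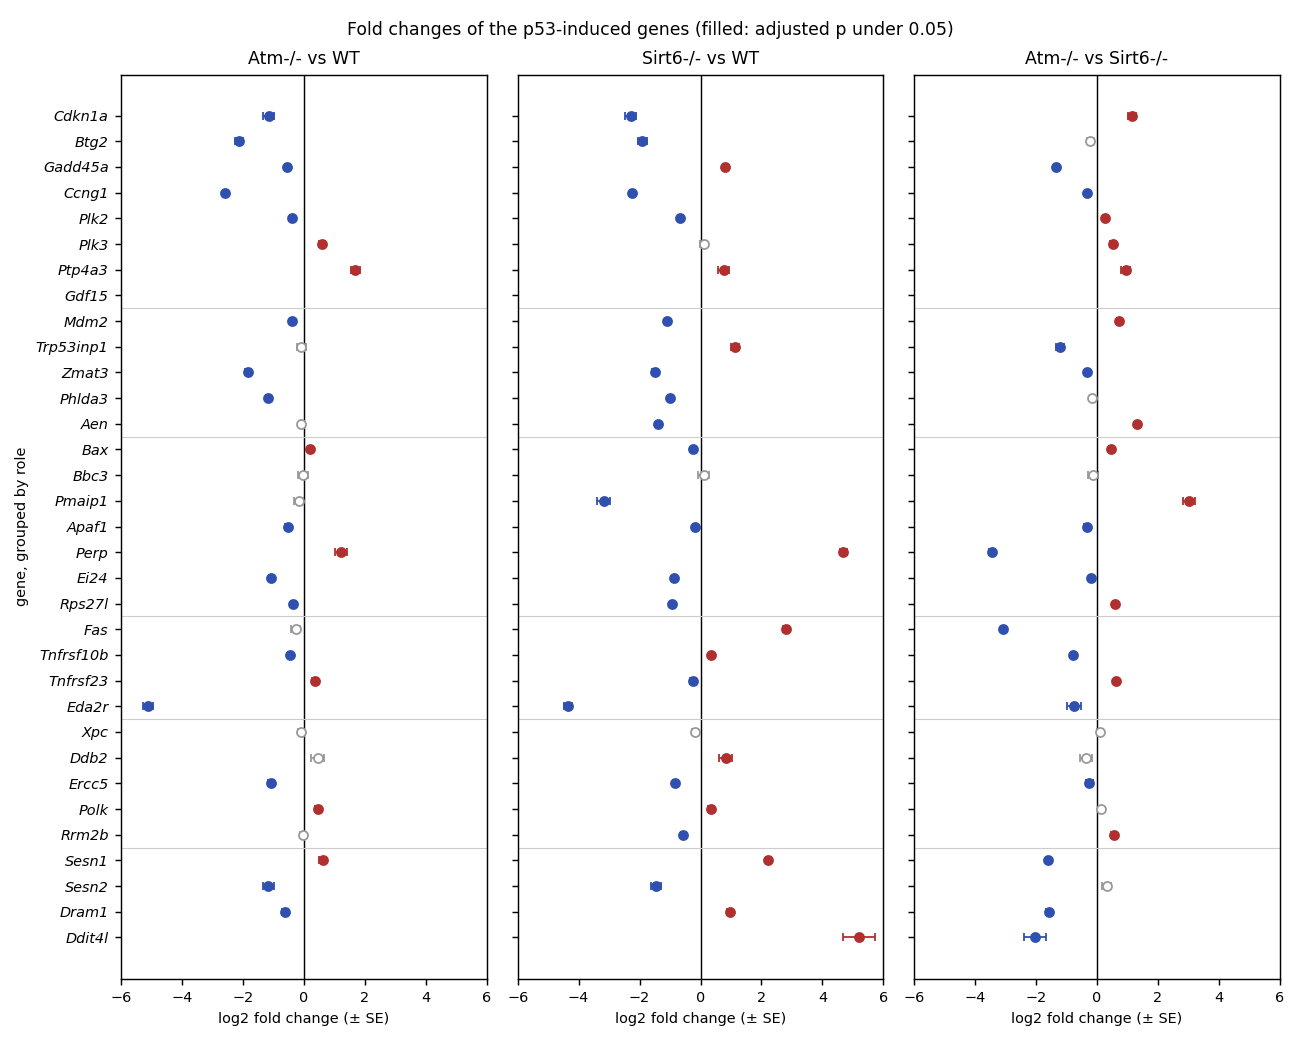
Log2 fold change of each p53-induced gene with its standard error in Atm-/- against WT, Sirt6-/- against WT and Atm-/- against Sirt6-/- MEFs, with filled points for an adjusted p under 0.05 and rows grouped by role. Ccng1, Btg2, Zmat3, Eda2r and Cdkn1a lie to the left in both comparisons with WT, Perp, Fas and Sesn1 lie far to the right in Sirt6-/-, and open points near 0 include Aen, Bbc3, Rrm2b, Trp53inp1 and Xpc in Atm-/-, whose sign turned with library totals.

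The counts by role that follow are small and stand beside the shares of all genes tested, which were 33.6% falling and 34.7% rising in Atm-/- and 37.4% falling and 39.2% rising in Sirt6-/-. These shares belong to the main scaling. They were not counted with library totals, which raised the median log2 fold change of all genes, so counts with library totals have no share beside them. Of 7 genes of cell cycle arrest and growth control tested, 5 fell and 2 rose in Atm-/-, and 4 fell and 2 rose in Sirt6-/-. Cdkn1a, which encodes the inhibitor p21 of cyclin-dependent kinases, was at 41.7, 26.6 and 24.2 CPM in WT, 12.3, 15.8 and 13.4 CPM in Atm-/- and 6.14, 6.33 and 6.33 CPM in Sirt6-/-. The 3 genotypes did not overlap, although WT replicate 1 stood 1.72 times above the lowest WT sample. The log2 fold change was -1.16 ± 0.17 (SE, adjusted p = 2.44e-05, edgeR) in Atm-/- and -2.30 ± 0.17 (adjusted p = 1.61e-08) in Sirt6-/-. Atm-/- was higher than Sirt6-/- by 1.15 ± 0.12 on the log2 scale (adjusted p = 3.68e-08).

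Ccng1, which encodes cyclin G1, was at 466, 392 and 397 CPM in WT and fell to 69.5, 69.4 and 71.4 CPM in Atm-/- and to 87.4, 87.3 and 88.9 CPM in Sirt6-/-. The knockout samples were thus tightly grouped and far below every WT sample. Its log2 fold change was -2.58 ± 0.06 (SE, adjusted p = 1.25e-13, edgeR) in Atm-/- and -2.25 ± 0.06 (adjusted p = 2.01e-13) in Sirt6-/-, and Atm-/- was slightly lower than Sirt6-/- (-0.32 ± 0.05, adjusted p = 4.2e-06). Btg2, an antiproliferative cofactor of mRNA decay, was at 53.9, 78.5 and 53.02 CPM in WT, 13.8, 15.2 and 13.4 CPM in Atm-/- and 17.1, 14.8 and 17.5 CPM in Sirt6-/-. It fell in both, with log2 fold changes of -2.13 ± 0.13 (adjusted p = 2.47e-09) and -1.91 ± 0.13 (adjusted p = 5.83e-09). The knockouts overlapped for Btg2, and their difference of -0.21 ± 0.10 did not pass the test (adjusted p = 0.0589), although it passed without Sirt6-/- replicate 2 (0.0225), without Atm-/- replicate 2 (0.0357) and in edgeR's exact test (0.0472).

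Ptp4a3, a membrane-associated tyrosine phosphatase, moved the other way. It was at 3.26, 3.005 and 3.24 CPM in WT, 10.8, 11.2 and 8.80 CPM in Atm-/- and 5.12, 4.73 and 6.24 CPM in Sirt6-/-, with no overlap between genotypes. The log2 fold change was 1.69 ± 0.15 (SE, adjusted p = 1.67e-07, edgeR) in Atm-/- and 0.76 ± 0.18 (adjusted p = 0.00151) in Sirt6-/-, and Atm-/- was higher than Sirt6-/- by 0.94 ± 0.14 (adjusted p = 6.06e-06). Gadd45a, a stress sensor that slows the cell cycle, fell in Atm-/- (log2 fold change -0.55) and rose in Sirt6-/- (0.81), with -1.34 between the knockouts. The polo-like kinase gene Plk2 was the most abundant of these genes in CPM, at 483 ± 25.3 in WT (SD, n = 3), and fell in both knockouts (log2 fold changes -0.41 and -0.66). Its relative Plk3 rose in Atm-/- (0.60) and had a log2 fold change of 0.10 in Sirt6-/- that did not pass the test. Gdf15, a secreted factor of the TGF-beta family that reports p53 activity and stress, was close to absent, with 4, 4 and 3 reads in WT, 7, 12 and 9 in Atm-/- and 6, 5 and 14 in Sirt6-/-. These counts lie near the floor of 3 reads, which is 0.0887 to 0.0932 CPM at these depths, and were not tested.

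**Figure D2:**
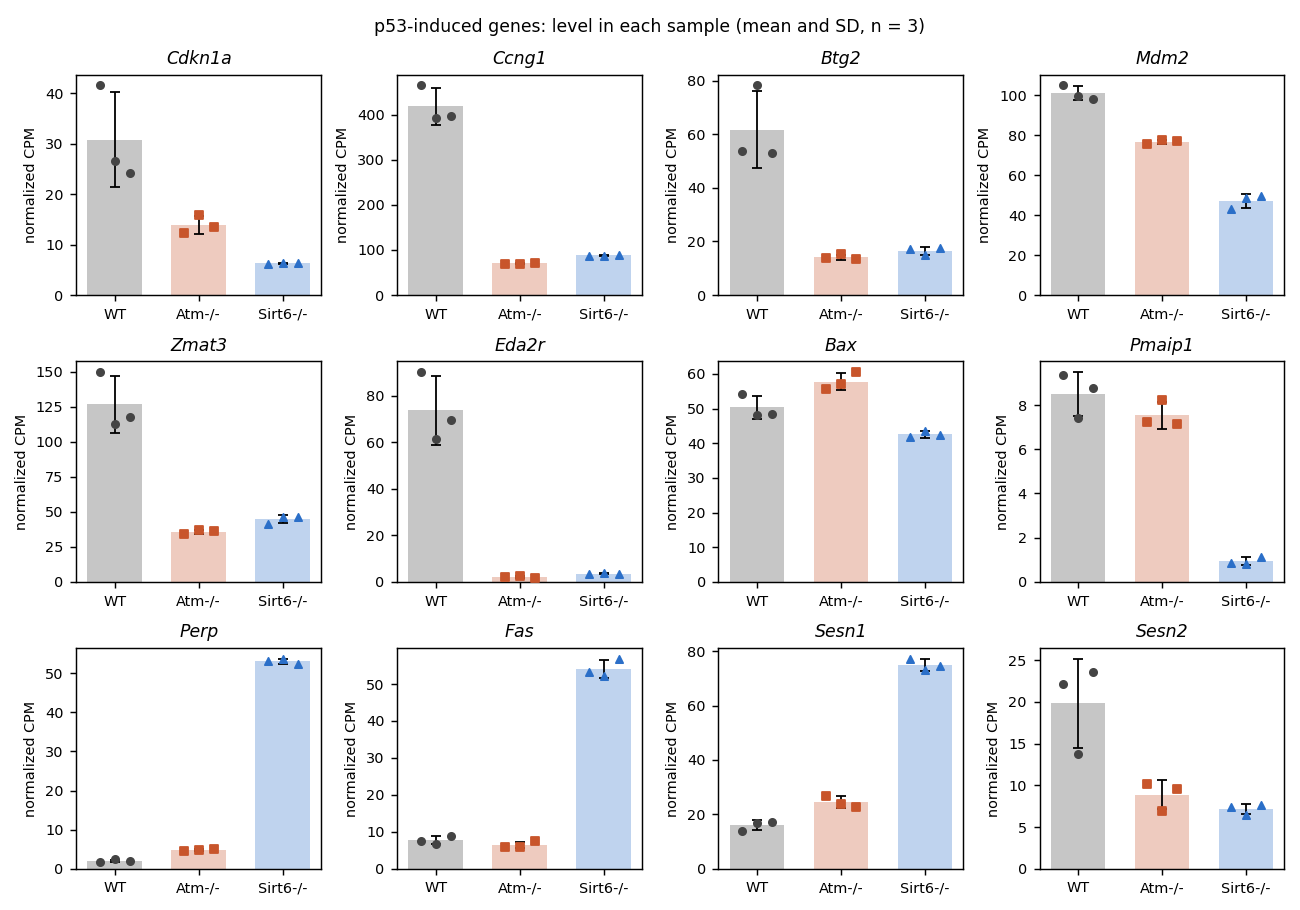
Level of 12 p53-induced genes in normalized CPM on a linear axis from 0, with a point per sample, bars for the mean and error bars for the SD of 3 samples. The WT samples are highest for Cdkn1a, Ccng1, Btg2, Mdm2, Zmat3, Eda2r and Sesn2, and the Sirt6-/- samples are highest for Perp, Fas and Sesn1 and lowest for Pmaip1.

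Among the feedback and other regulators, 3 of 5 fell and none rose in Atm-/-, and 4 fell and 1 rose in Sirt6-/-, beside 33.6% falling and 34.7% rising of all genes in Atm-/- and 37.4% and 39.2% in Sirt6-/-. Mdm2, the ubiquitin ligase that removes p53, was at 105, 99.8 and 98.3 CPM in WT, 75.5, 77.4 and 77.2 CPM in Atm-/- and 42.8, 48.4 and 49.3 CPM in Sirt6-/-. The order WT, Atm-/-, Sirt6-/- held in every sample. Its log2 fold change was -0.41 ± 0.05 in Atm-/- (SE, adjusted p = 6.03e-06, edgeR) and -1.11 ± 0.06 in Sirt6-/- (adjusted p = 6.31e-10), and Atm-/- was higher than Sirt6-/- by 0.72 ± 0.06 (adjusted p = 5.02e-10). Zmat3, which encodes an RNA-binding zinc finger protein, was at 149.9, 112.5 and 118 CPM in WT, 34.1, 36.9 and 36.4 CPM in Atm-/- and 41.6, 46.6 and 46.4 CPM in Sirt6-/-. Zmat3 fell in both, with log2 fold changes of -1.83 ± 0.09 (adjusted p = 2.31e-10) and -1.50 ± 0.09 (adjusted p = 1.48e-09), and Atm-/- was lower than Sirt6-/- (-0.32 ± 0.07, adjusted p = 0.00021).

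Phlda3, which encodes a repressor of Akt signalling, fell in both knockouts (log2 fold changes -1.18 and -1.00). The knockouts differed for it by -0.16, which did not pass the test (adjusted p = 0.0537, edgeR) but did without Atm-/- replicate 3 (0.00461) and in 4 other settings. Aen, an exonuclease gene of apoptosis, showed a split, with a log2 fold change of -0.10 in Atm-/- that did not pass the test (adjusted p = 0.149), a fall in Sirt6-/- (-1.40) and a difference of 1.31 between the knockouts. Trp53inp1, which encodes a nuclear cofactor of p53, was at 5.71 ± 0.585 CPM in WT (SD, n = 3), 5.41 ± 0.580 in Atm-/- and 12.5 ± 1.21 in Sirt6-/-. It rose by 1.13 in Sirt6-/-, and its difference of -0.09 in Atm-/- did not pass the test and turned to 0.08 with library totals.

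Of the 7 genes listed under mitochondrial apoptosis, 3 fell and 2 rose in Atm-/-. In Sirt6-/-, 5 fell and 1 rose, or 3 and 1 with library totals. The list also holds Perp, Ei24 and Rps27l, whose products are described below by other sites or roles. Among Bax, Bbc3, Pmaip1 and Apaf1, only Apaf1 fell and only Bax rose in Atm-/-. The only rise in Sirt6-/- was that of Perp, and Bax, Pmaip1 and Apaf1 fell there. Bax, which forms pores in the outer mitochondrial membrane, was at 54.2, 48.2 and 48.5 CPM in WT, 55.8, 57.0 and 60.6 CPM in Atm-/- and 41.8, 43.6 and 42.3 CPM in Sirt6-/-. The genotypes did not overlap, but the gaps were small. Bax rose by 0.19 ± 0.07 on the log2 scale in Atm-/- (SE, adjusted p = 0.0189, edgeR), a call that was lost without WT replicate 3 (0.0761) or without Atm-/- replicate 3 (0.0704). It fell by 0.24 ± 0.07 in Sirt6-/- (adjusted p = 0.00424), a call that was lost with library totals (0.0503). The knockouts differed by 0.45 ± 0.06 (adjusted p = 6.48e-07).

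Pmaip1 and Bbc3 encode Noxa and Puma, small proteins that disarm the guardians of the mitochondrial membrane. Pmaip1 was at 9.35, 7.42 and 8.76 CPM in WT, 7.24, 8.25 and 7.15 CPM in Atm-/- and 0.859, 0.803 and 1.14 CPM in Sirt6-/-. WT and Atm-/- overlapped (log2 fold change -0.18 ± 0.14, SE, adjusted p = 0.255, edgeR), whereas every Sirt6-/- sample was far below both. Pmaip1 fell by 3.18 ± 0.21 in Sirt6-/- (adjusted p = 2.88e-09), and Atm-/- was higher than Sirt6-/- by 3.01 ± 0.20 (adjusted p = 2.4e-11). Bbc3 stayed between 3.87 and 5.06 CPM in all 9 samples and passed no test, with log2 fold changes of -0.04, 0.10 and -0.13 whose standard errors were 0.17, 0.17 and 0.16.

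Perp encodes a tetraspan membrane protein of desmosomes and of p53-dependent death. It was at 1.79, 2.40 and 1.97 CPM in WT, 4.47, 4.77 and 5.17 CPM in Atm-/- and 53.02, 53.7 and 52.4 CPM in Sirt6-/-, without overlap. Its log2 fold change was 1.22 ± 0.20 in Atm-/- (SE, adjusted p = 6.98e-05, edgeR) and 4.69 ± 0.11 in Sirt6-/- (adjusted p = 1.46e-14), with -3.46 ± 0.08 between the knockouts (adjusted p = 6.81e-19). Of the 5 epithelial markers, Krt19, Krt18 and Cdh1 rose in Atm-/- (log2 fold changes 4.42, 1.96 and 0.84), and in Sirt6-/- Krt19 rose (0.83) and Krt18 fell (-0.51). The part of epithelial gene expression in the Perp values was not tested. Apaf1, the scaffold of the apoptosome, fell in Atm-/- (-0.53). Its small fall in Sirt6-/- (-0.17, adjusted p = 0.0322) was lost with library totals, with the filter of 10 reads in every sample, and without WT replicate 1 or 3 or Sirt6-/- replicate 2 or 3, where the adjusted p was between 0.0685 and 0.113. Ei24, an endoplasmic reticulum protein, fell in both (-1.08 and -0.87), and the difference of -0.20 between the knockouts (adjusted p = 0.0122) was lost with library totals (0.0697) and without Atm-/- replicate 1 (0.0742). Rps27l, a ribosomal protein S27-like gene, fell in both as well (-0.37 and -0.94), and Atm-/- was higher than Sirt6-/- by 0.58.

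In the TNF receptor family, 2 of 4 genes fell and 1 rose in Atm-/-, and 2 fell and 2 rose in Sirt6-/-, or 1 and 2 with library totals. Eda2r, a receptor for ectodysplasin A2, was at 90.2, 61.6 and 69.4 CPM in WT, 2.11, 2.71 and 1.57 CPM in Atm-/- and 3.56, 3.74 and 3.51 CPM in Sirt6-/-. All 6 knockout samples were far below all WT samples. The log2 fold change was -5.12 ± 0.17 in Atm-/- (SE, adjusted p = 3.05e-12, edgeR) and -4.35 ± 0.14 in Sirt6-/- (adjusted p = 8.23e-13), and Atm-/- was lower than Sirt6-/- (-0.75 ± 0.23, adjusted p = 0.00524).

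Fas, a death receptor that recruits caspases, was at 7.46, 6.81 and 8.86 CPM in WT, 5.83, 5.99 and 7.41 CPM in Atm-/- and 53.3, 52.3 and 56.8 CPM in Sirt6-/-. WT and Atm-/- overlapped (log2 fold change -0.27 ± 0.15, SE, adjusted p = 0.127, edgeR) and the Sirt6-/- samples stood apart from both. Fas rose by 2.81 ± 0.10 in Sirt6-/- (adjusted p = 1.42e-12), with -3.07 ± 0.09 between the knockouts (adjusted p = 1.7e-17). Tnfrsf10b, the mouse receptor for the death ligand TRAIL, fell in Atm-/- (-0.46) and rose in Sirt6-/- (0.36), with -0.80 between them. Tnfrsf23, a decoy receptor with close relatives beside it that could share its reads, rose in Atm-/- (0.36) and was higher there than in Sirt6-/- (0.62). Its fall in Sirt6-/- (-0.25, adjusted p = 0.0449) was lost with library totals, with the filter of 10 reads in every sample, and without WT replicate 2 (0.236) or Sirt6-/- replicate 1 (0.107) or 3 (0.152).

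Among DNA repair genes, 1 of 5 fell and 1 rose in Atm-/- (1 and 2 with library totals), and 2 fell and 2 rose in Sirt6-/-, none of them by 2-fold except Ercc5 in Atm-/-. Ercc5, which encodes the endonuclease XPG of nucleotide excision repair, was at 27.2 ± 1.26 CPM in WT (SD, n = 3), 12.9 ± 1.09 in Atm-/- and 15.4 ± 1.13 in Sirt6-/-, and fell in both (-1.09 and -0.82). The difference of -0.25 between the knockouts (adjusted p = 0.0361, edgeR) was lost with library totals, in DESeq2 and without Sirt6-/- replicate 1 or 2 or Atm-/- replicate 3, with adjusted p between 0.0531 and 0.157. Polk, a polymerase gene of translesion synthesis, rose in both (0.45 and 0.34). Ddb2, a sensor of ultraviolet lesions, rose in Sirt6-/- (0.82). In Atm-/- its value of 0.45 did not pass the test (adjusted p = 0.0655), but passed with library totals (0.0153), the filter of 10 reads (0.0473), edgeR's exact test (0.0336) and without WT replicate 2 (0.0351). Between the knockouts, neither Polk (0.12) nor Ddb2 (-0.36) passed, and Ddb2 did without Sirt6-/- replicate 2 (0.0467). Xpc, the partner sensor of helix distortion, stayed between 13.5 and 18.5 CPM and passed no test. Rrm2b, the p53-induced subunit of ribonucleotide reductase, had a log2 fold change of -0.03 in Atm-/- that did not pass and fell in Sirt6-/- (-0.56), with 0.54 between the knockouts.

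Of the 4 genes of metabolism, autophagy and mTOR control, 2 of 3 tested fell and 1 rose in Atm-/-, and 1 fell and 3 rose in Sirt6-/-. Between the knockouts, 3 of 4 were lower in Atm-/- and 0 higher, beside 37.8% lower and 38% higher of all genes. With library totals, 3 were lower and 1 higher. Sesn1 and Sesn2 encode sestrins, which restrain mTORC1. Sesn1 was at 13.9, 16.9 and 17.4 CPM in WT, 26.9, 23.9 and 22.7 CPM in Atm-/- and 77.2, 73.2 and 74.4 CPM in Sirt6-/-, rising in steps without overlap. Its log2 fold change was 0.61 ± 0.10 in Atm-/- (SE, adjusted p = 0.000124, edgeR) and 2.23 ± 0.08 in Sirt6-/- (adjusted p = 3.66e-12), with -1.61 ± 0.07 between the knockouts (adjusted p = 7.12e-15). Sesn2 went the opposite way, at 19.9 ± 5.33 CPM in WT (SD, n = 3), 8.89 ± 1.74 in Atm-/- and 7.17 ± 0.650 in Sirt6-/-, and fell in both (-1.17 and -1.47). The knockouts differed for Sesn2 by 0.32, which did not pass the test (adjusted p = 0.0607), but did without Atm-/- replicate 2 (0.00499) and in 4 other settings.

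Dram1, a lysosomal protein of autophagy, fell in Atm-/- (-0.63) and rose in Sirt6-/- (0.96), with -1.57 between the knockouts. Ddit4l, an inhibitor of mTORC1, was counted with 0, 4 and 2 reads in WT, 21, 33 and 8 reads in Atm-/- and 72, 76 and 95 reads in Sirt6-/-. The genotypes did not overlap, and the gene was low everywhere. Its log2 fold change was 5.20 ± 0.53 in Sirt6-/- (SE, adjusted p = 4.33e-07, edgeR), a size that depended on the few WT reads: it was 6.11 without WT replicate 2 and 4.33 with a prior count of 2. Atm-/- was lower than Sirt6-/- (-2.04 ± 0.37, adjusted p = 4.17e-05). The row that carries the RefSeq transcript of Tigar, a phosphatase gene that slows glycolysis, was at 35.9, 34.8 and 35.3 CPM in WT, 31.4, 29.8 and 28.9 CPM in Atm-/- and 13.2, 13.5 and 14.2 CPM in Sirt6-/-. That row fell in both, with log2 fold changes of -0.24 ± 0.07 (adjusted p = 0.00637) and -1.37 ± 0.08 (adjusted p = 5.41e-10), and Atm-/- was higher than Sirt6-/- by 1.14 ± 0.08 (adjusted p = 5.34e-11).

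**Figure D3:**
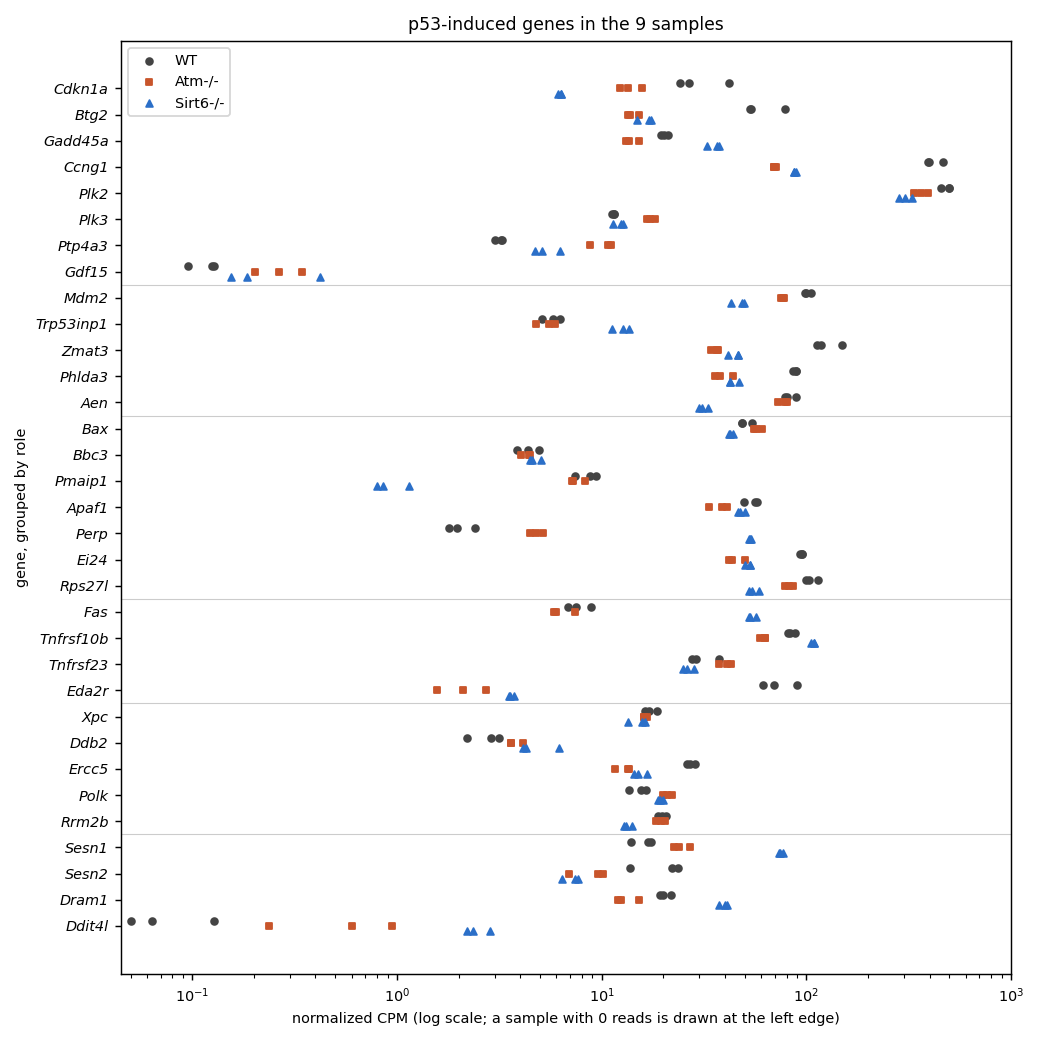
Normalized CPM of the 33 p53-induced genes in each of the 9 samples on a log axis, grouped by role. Levels in WT span from at most 0.128 CPM for Gdf15 and Ddit4l to between 392 and 499 CPM for Ccng1 and Plk2. Except for Gdf15 and Ddit4l, the samples of a genotype lie close together.

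The samples of a genotype varied little for these genes. Over the 31 members other than Gdf15 and Ddit4l, the ratio of the highest to the lowest sample had a median of 1.15 in WT, 1.15 in Atm-/- and 1.11 in Sirt6-/-, and reached at most 1.72, 1.73 and 1.5. Levels of different genes were compared per length, with the RPKM that the authors deposited. Rps27l and Plk2 were the highest members in every genotype, at 215 ± 14.6 and 162.5 ± 8.71 RPKM in WT (SD, n = 3), 186 ± 7.84 and 137 ± 10.7 in Atm-/- and 119 ± 6.88 and 109 ± 8.52 in Sirt6-/-. Ccng1 came next in WT at 113 ± 11.0 RPKM. Fas took that place in Sirt6-/- at 97.7 ± 3.86 RPKM, a value that rests on a listed length of only 555 bases, and Bax took it in Atm-/- at 69.8 ± 2.91 RPKM. The listed length of Rps27l was shorter still, at 464 bases, and its first rank rests on it. In CPM, Rps27l lay below Plk2 in WT, at a mean of 106 beside 483. Gdf15 and Ddit4l were last in WT and in Atm-/-, and Pmaip1 and Gdf15 in Sirt6-/-.

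The members with and without a half-site in their promoter window moved in both directions. In Atm-/-, 6 of 10 tested members with a half-site fell and 3 rose, beside 8 of 12 and 2 of 12 without, and 33.6% falling and 34.7% rising of all genes. In Sirt6-/-, 7 of 11 with a half-site fell and 4 rose, beside 8 of 12 and 2 of 12 without, and 37.4% falling and 39.2% rising of all genes. The difference between members with and without a half-site was not tested. Among the sequences printed above, those of Cdkn1a, Ccng1 and Mdm2 belong to genes that fell in both knockouts, and those of Sesn1 and Polk to genes that rose in both.

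Trp53, the gene of p53 itself, was at 223, 227 and 208 CPM in WT, 23.25, 27.0 and 27.4 CPM in Atm-/- and 279, 282 and 276.5 CPM in Sirt6-/-. It fell 8.52-fold in Atm-/- (log2 fold change -3.09 ± 0.07, SE, adjusted p = 2.99e-14, edgeR) and rose 1.27-fold in Sirt6-/- (0.35 ± 0.05, adjusted p = 7.93e-06), with -3.42 ± 0.06 between the knockouts (adjusted p = 7.88e-22). The level of Trp53 RNA in Atm-/- was thus low but above 0, and gene counts do not show whether it encodes a whole protein. The part of the Trp53 level in the values of its target genes was not tested.

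**Figure D4:**
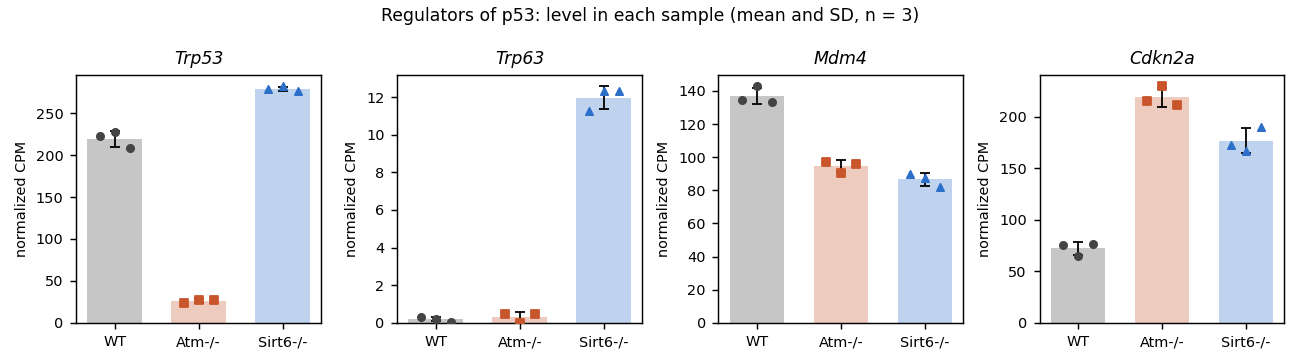
Level of Trp53, Trp63, Mdm4 and Cdkn2a in normalized CPM on linear axes from 0, with a point per sample, bars for the mean and error bars for the SD of 3 samples. Trp53 is low in the Atm-/- samples, Trp63 is above 11 CPM in the Sirt6-/- samples and below 0.5 CPM in the rest, Mdm4 is highest in WT, and Cdkn2a is highest in Atm-/-.

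Among 25 regulators and partners of p53 in the tables, 7 of 23 tested rose and 12 fell in Atm-/-, 10 of 24 rose and 12 fell in Sirt6-/-, and 14 of 24 were higher and 7 lower in Atm-/- than in Sirt6-/-. Of all genes, 34.7% rose and 33.6% fell in Atm-/-, and 39.2% rose and 37.4% fell in Sirt6-/-. Between the knockouts, 38% of all genes were higher and 37.8% lower in Atm-/- than in Sirt6-/-. The share of rising regulators was thus near that of all genes in both comparisons with WT. The share of falling regulators was above that of all genes in both. With library totals, 9 rose and 10 fell in Atm-/-, and in Sirt6-/- the larger number turned, with 11 rising and 9 falling. The shares of all genes were counted in the main scaling only, and library totals raised the median of all genes. Trp63, a p53 relative that drives epithelial genes, was counted with 9, 6 and 2 reads in WT, 16, 0 and 15 in Atm-/- and 367, 398 and 411 in Sirt6-/-. Its log2 fold change in Sirt6-/- was 6.03 ± 0.27 (SE, adjusted p = 3.44e-11, edgeR), and it was not tested between Atm-/- and WT. Cdkn2a, whose counts pool the transcripts of p16Ink4a and of the Mdm2 inhibitor p19Arf, was at 75.2, 65.3 and 76.2 CPM in WT, 216, 229.7 and 212 CPM in Atm-/- and 173, 167 and 190.4 CPM in Sirt6-/-. It rose by 1.59 ± 0.06 (adjusted p = 1.25e-11) and 1.29 ± 0.07 (adjusted p = 1.8e-10).

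Mdm4, the Mdm2 relative that masks p53, fell in Atm-/- (log2 fold change -0.54) and in Sirt6-/- (-0.66). The apoptosis-stimulating partners Ppp1r13b and Trp53bp2 fell in Atm-/- (-1.51 and -1.34) and in Sirt6-/- (-2.29 and -2.22). Sirt1, which encodes a deacetylase of p53, rose in both (1.40 and 1.10). Atm RNA rose by 1.04 in Atm-/- and by 0.46 in Sirt6-/-. Sirt6 RNA fell in Atm-/- (-0.35, adjusted p = 0.0131, edgeR). That call was lost with library totals (0.159) and without WT replicate 1 (0.0516) or Atm-/- replicate 3 (0.0555).

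A second list of 32 other p53-induced genes gave 18 falls and 4 rises of 30 tested in Atm-/-, with a median log2 fold change of -0.37, and 13 falls and 9 rises of 30 in Sirt6-/-, with a median of -0.22. Beside them, 33.6% of all genes fell and 34.7% rose in Atm-/-, and 37.4% fell and 39.2% rose in Sirt6-/-, where the shares of this list were thus not far from those of all genes. With library totals there were 12 falls and 7 rises in Atm-/-, and 13 falls and 9 rises in Sirt6-/-. The shares of all genes given here belong to the main scaling and were not counted with library totals. Igfbp3, which binds insulin-like growth factors, fell in Atm-/- (log2 fold change -5.59) and in Sirt6-/- (-10.00), from 1330, 1041 and 1436 CPM in WT to 25.3, 26.5 and 27.5 and to 1.07, 1.54 and 1.08 CPM. Ephx1, an epoxide hydrolase gene, fell in both (-3.20 and -1.69), as did Sulf2, a sulfatase gene (-1.48 and -2.91). The receptor gene Notch1 rose in both (2.42 and 3.92), as did Steap3, a metalloreductase gene (2.14 and 1.81).

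Cell cycle genes that p53 activation is known to lower formed a further list of 18 genes. In Atm-/-, 11 rose, 2 fell and 5 did not pass the test, with a median log2 fold change of 0.22. In Sirt6-/-, 1 rose, 11 fell and 6 did not pass, with a median of -0.25. Directly compared, 17 of 18 were higher and 1 lower in Atm-/- than in Sirt6-/-. Over all genes, 34.7% rose and 33.6% fell in Atm-/-, 39.2% rose and 37.4% fell in Sirt6-/-, and 38% were higher and 37.8% lower between the knockouts. With library totals, 15 rose and 1 fell in Atm-/-, 2 rose and 10 fell in Sirt6-/-, and the counts between the knockouts stayed at 17 and 1. Shares of all genes were not counted under that scaling, which raised the median of all genes. Ccnb1, which encodes cyclin B1, rose by 0.77 and Top2a, a topoisomerase gene, by 0.52 on the log2 scale in Atm-/-, while Ccnb2 and the kinase gene Plk1 fell (-0.32 and -0.23). In Sirt6-/-, the transcription factor gene Mybl2 (-1.23) and Plk1 (-0.70) fell, and Top2a rose (0.18). All called changes of these 18 genes were under 2-fold except those of Mybl2 in Sirt6-/- against WT and between the knockouts, and the fall of Plk1 in Atm-/- was lost with library totals (-0.06, adjusted p = 0.233, edgeR).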

How the data were processed

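RNA-Seq tables of 9 MEF samples (3 WT, 3 Atm-/- and 3 Sirt6-/-) were used. Per the labels, mRNA was selected with oligo(dT) beads, and the build was mm10. The aligner, counter, strand setting and annotation version are not given in the sources used here, so reads of overlapping or antisense genes cannot be separated. The authors deposited a whole-number read count per gene symbol, without normalization, and RPKM made from the same counts, the listed length and a read total per sample that exceeds the reads on genes by 27932 to 221139.

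Tests were run on the counts in R 4.3.3, in a separate edgeR 4.0.16 fit for each pair of genotypes over all genes. Genes were kept by filterByExpr and scaled by TMM, and glmQLFTest followed glmQLFit (prior count 0.125). P-values were adjusted over all genes tested by the Benjamini-Hochberg method, and a gene was called at an adjusted p under 0.05. Standard errors are the log2 fold change over the root of F. CPM use TMM factors over all 9 samples, and RPKM only ordered genes within a genotype. Alternatives were DESeq2 1.42.0 size factors and its Wald test, library totals, other filters, all 9 samples in 1 fit, a replicate block, edgeR's exact test, a prior count of 2, a 2-fold threshold and leaving out each sample. The fit was tested on simulated data. Replicates of a genotype correlated at 0.9945 to 0.9953 over genes and differed by more than sampling noise (chi-square per gene 5.24 to 16.4), so none was taken for a copy of another library, which does not show that they are separate cultures.

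Members and gene lists were chosen with earlier results of these data known, and no set test was run. Full values were planned for Cdkn1a, Mdm2, Bax, Ccng1 and the 5 called members of largest absolute log2 fold change in each comparison. Genes named from each further list were the 2 largest rises and falls past the test against WT. Trp53, Mdm4, Cdkn2a, Atm and Sirt6 were named in any case. Tigar was matched by its RefSeq accession. Promoter windows of 300 bases are from RefSeq on GRCm38.p6, the assembly called mm10.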

Additional observations from a re-analysis of the deposited data

How the results depend on the processing

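Of 95 results of single members (31, 32 and 32 in the 3 comparisons), 78 kept their direction and their side of the threshold in every alternative except the 2-fold threshold. Of the 77 calls, 71 held in all of these alternatives. The filter of 10 reads in every sample left Ddit4l untested, and its results were counted as kept there. With library totals, the median log2 fold change of all genes moved to 0.18 in Atm-/- against WT, 0.11 in Sirt6-/- against WT and 0.06 in Atm-/- against Sirt6-/-, and that of the members to -0.21, -0.15 and -0.12. Under this scaling, 5 uncalled members turned sign in Atm-/- against WT: Trp53inp1 (0.078), Aen (0.060), Bbc3 (0.12), Xpc (0.062) and Rrm2b (0.13), as did Ccnb2 in Sirt6-/- against WT (0.068). At a threshold of 2-fold, 2 members were higher and 9 lower in Atm-/- (2983 genes called), 5 and 10 in Sirt6-/- (3872 genes), and 3 and 7 between the knockouts (3433 genes). Of all genes, 12.6% were higher and 9.85% lower by 2-fold in Atm-/-, 17.5% and 11.8% in Sirt6-/-, and 11.3% and 14.2% between the knockouts. Leaving out each sample in turn gave a member median of -0.39 to -0.28 in Atm-/- against WT, the smallest change being without WT replicate 3, 16 falling members in every case and 7 to 9 rising ones. The same runs gave 11 rising and 16 to 17 falling members in Sirt6-/-, and 11 to 12 higher and 13 to 15 lower between the knockouts. Over all genes, 8545 to 9240 were then called in Atm-/-, 9651 to 10217 in Sirt6-/- and 9896 to 10007 between the knockouts. Shares of all genes by direction were not counted in these runs. In them, uncalled log2 fold changes near 0 crossed it: in Atm-/- against WT, Trp53inp1 ranged from -0.16 to 0.004, Bbc3 from -0.13 to 0.049 and Rrm2b from -0.064 to 0.014, and in Sirt6-/- against WT, Bbc3 ranged from -7e-04 to 0.18 and Ccnb2 from -0.076 to 0.0032. The cause of these turns was not tested. Equal replicate numbers did not pair samples (correlations of -0.0189 to 0.0549 of their deviations), and with the replicate block 7 members were higher and 16 lower in Atm-/-, 11 and 18 in Sirt6-/-, and 12 and 15 between the knockouts, where Phlda3 and Sesn2 then passed. Shares of all genes by direction were not counted with the replicate block either. At these depths, Gdf15 in every comparison and Ddit4l in Atm-/- against WT were too low to test, and groups of 3 samples were too small to test for outliers.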
